A study of Rattus norvegicus with 15 samples.

Results

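Fgf2 and Gdnf encode growth factors, and their transcripts were followed through 3 stages of the rat enamel organ, the epithelium that makes tooth enamel. They are 2 of the 38 genes that could be named through a RefSeq accession on the long non-coding RNA array that was used, which held 38321 probes. Probes were assigned to these genes by accession alone: a probe counted where its name on the array was a RefSeq transcript of rat Fgf2 (NM_019305) or Gdnf (NM_019139). Each gene had 1 probe, and each probe was printed as 10 spots on every array. The spots are repeat readings of 1 probe in 1 RNA sample and were averaged, so the array is the unit of replication.

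The tissue came from the mandibular incisor of Wistar Hannover rats at 4 weeks of age, without any treatment or genetic change named in the labels. There were 5 arrays of the cervical loop, the growing end of the incisor where progenitors of the enamel-forming ameloblasts lie. A further 5 arrays were of the secretory stage, in which ameloblasts lay down enamel matrix, and 5 of the maturation stage, in which they clear that matrix and load mineral. The series design names 5 rats for these 15 RNA samples.

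FGF2, also called basic fibroblast growth factor, binds heparan sulphate in the extracellular matrix and acts through the FGF receptor tyrosine kinases. FGF signals exchanged between dental mesenchyme and epithelium are known to maintain the progenitors of the cervical loop in rodent incisors. GDNF, the glial cell line-derived neurotrophic factor, binds GFR-alpha co-receptors and signals through the receptor tyrosine kinase RET. It is best known for supporting neurons and for kidney development, and in teeth it has been studied in connection with innervation.

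Stages were taken from the tissue label, which the sample titles contradict on 8 of the 15 arrays by exchanging secretory and maturation. Without marker genes on the array, which of these groups is secretory rests on the labels. The share of spots well above background ranged from 67.4% to 78.9% over the arrays. The scan day of the cervical loop arrays differed from that of the rest, so in comparisons with the cervical loop the stage and the day of scanning cannot be told apart. Of the 42 marker genes listed for ameloblasts, progenitors and other cell types, 0 were named on the array, so the labelled tissue could not be checked against markers. In such bulk samples fewer cells of a type and less RNA per cell cannot be told apart.

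The Fgf2 probe was brightest in the cervical loop. Its processed signal, the background-subtracted brightness on a linear scale, was 60.5, 63.0, 64.0, 79.0 and 80.0 on the cervical loop arrays of replicates 1 to 5. The secretory arrays gave 16.6, 17.1, 11.4, 15.0 and 15.4 for this gene. On the maturation arrays the Fgf2 signal was 24.2, 23.7, 25.03, 33.2 and 35.01. The 3 stages did not overlap on this unscaled signal: every cervical loop array was above every maturation array, and every maturation array above every secretory array. This signal also carries the brightness of whole arrays, whose 75th percentile ranged from 8.21 to 9.36 in log2. On scaled signal, 24.3% of the 28863 features tested were lower in every secretory than in every cervical loop array. For 30.6% every maturation array was below every cervical loop array, and for 20.1% above every secretory array. These shares are for pairs of stages, not for all 3 at once. Within a stage the Fgf2 signal of the brightest array exceeded that of the dimmest by 1.32 to 1.51 times.

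The Gdnf probe was bright in the maturation stage and dim in the others. Its processed signal on the maturation arrays of replicates 1 to 5 was 138, 179, 153, 63.5 and 115. The cervical loop arrays gave 16.2, 21.5, 20.4, 6.72 and 12.4 for Gdnf. On the secretory arrays it gave 9.02, 8.62, 5.59, 5.14 and 3.25. The lowest maturation array stood above every array of the other stages, while cervical loop and secretory arrays overlapped. On scaled signal, all maturation arrays were above all secretory arrays for 20.1% of the features tested and above all cervical loop arrays for 14.3%. Gdnf varied more within a stage than Fgf2, with the brightest array 2.78 to 3.20 times the dimmest.

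**Figure D1:**
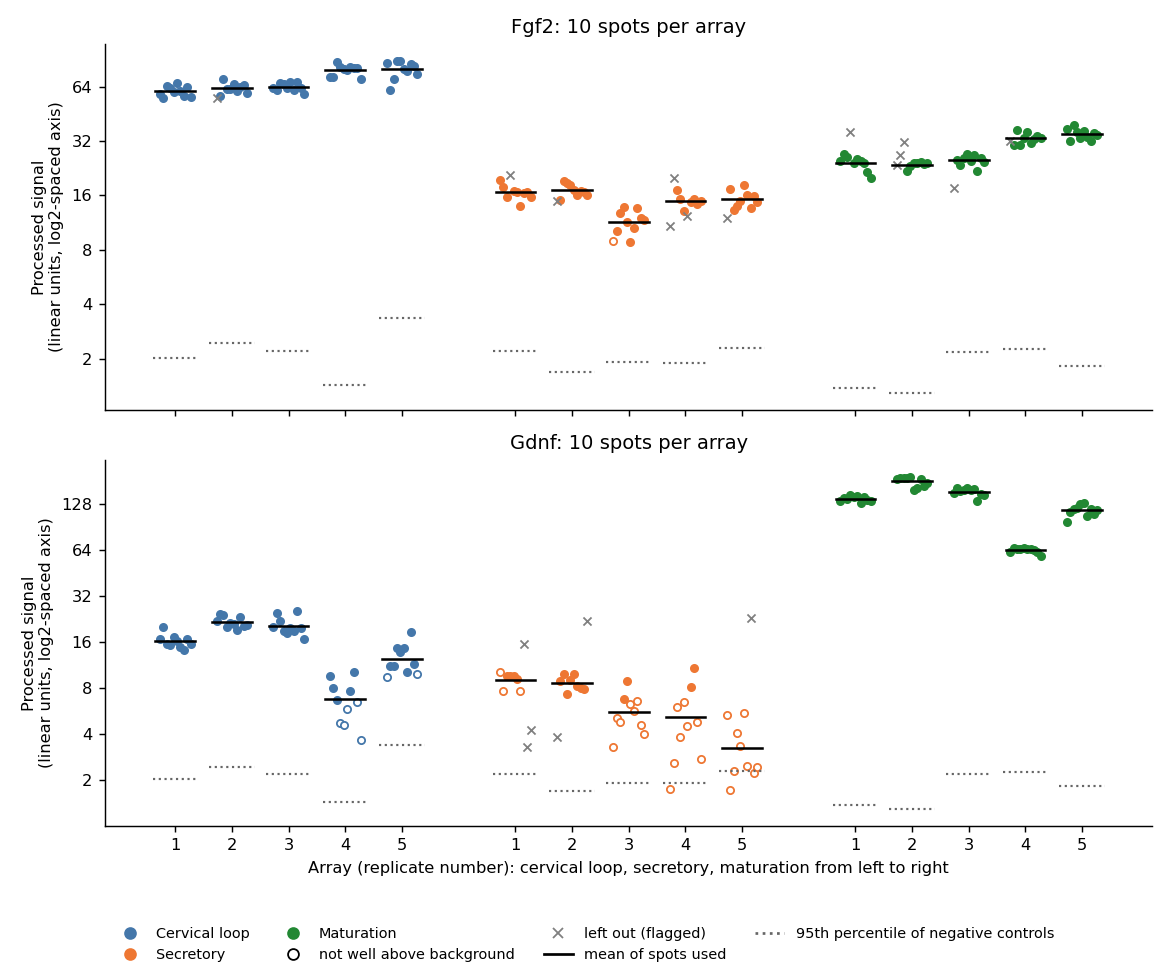
Processed signal of each spot of the Fgf2 probe (top) and the Gdnf probe (bottom) on the 15 arrays, on a log2-spaced axis. Filled points are spots well above background, open points are not, crosses were left out because the scanner software flagged them, bars are the mean of the spots used and dotted lines the 95th percentile of the negative control spots of that array. All Gdnf spots of the maturation arrays lie far above the controls, and those of secretory replicate 5 reach down to them.

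Detection differed between the genes. All 50 Fgf2 spots of the cervical loop arrays and all 50 of the maturation arrays were well above background by the scanner software's own flag, and on the secretory arrays all but 1 were. For Gdnf all 50 maturation spots passed, against 43 of the 50 cervical loop spots and 19 of the 50 secretory spots. On the secretory arrays 5, 9, 2, 2 and 1 of the 10 Gdnf spots passed in replicates 1 to 5. With 50% of the spots as the minimum, Gdnf therefore counted as measured on 2 of the 5 secretory arrays, replicates 1 and 2, of which replicate 1 stood exactly at this minimum. These counts include spots left out of the means: among the spots that were used, 4 of 7 passed in replicate 1, 8 of 8 in replicate 2 and 0 of 9 in replicate 5. On the cervical loop arrays of replicates 4 and 5 it passed on 5 and 8 spots, so that replicate 4 also stood exactly at the minimum.

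The negative control spots give the processed signal that remains without a target, after background was subtracted. Their median signal was 1.06 to 2.00 over the 15 arrays. The mean Fgf2 signal was 33.0 to 63.5 times that median on cervical loop arrays, 7.82 to 12.8 times on secretory arrays and 15.6 to 23.8 times on maturation arrays. For Gdnf the same ratio was 5.40 to 11.8 on cervical loop arrays, 1.84 to 6.44 on secretory arrays and 38.2 to 168 on maturation arrays. Such ratios are to a small remainder after subtraction and not to the brightness of a spot without a target. On secretory replicate 5, 1 Gdnf spot with a raw signal of 21 under a background of 22 still had a processed signal of 2.42 (error 2.41). The mean Gdnf signal of all 5 secretory arrays lay above the 95th percentile of their negative controls, though most single spots there were not well above background.

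The repeat spots show the precision of these readings. The coefficient of variation over the spots of an array was 3.54% to 8.17% for Gdnf in maturation and 10.8% to 53.5% for Gdnf in the secretory stage. For Fgf2 it was 4.96% to 11.1% on cervical loop arrays, 8.04% to 15.5% on secretory arrays and 3.86% to 8.998% in maturation. The Gdnf spots of 1 array thus spread far less in maturation than the arrays did among themselves. The scanner software flagged 13 Fgf2 spots and 6 Gdnf spots over the 15 arrays as uneven or as outliers, and these were left out; all 6 Gdnf spots were on secretory arrays.

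For the comparison of stages each array was scaled by subtracting its 75th percentile on the log2 scale, so a negative value lies below that percentile. Fgf2 stood at -2.85 ± 0.38 for cervical loop arrays, at -4.61 ± 0.08 for secretory arrays and at -4.16 ± 0.18 for maturation arrays (SD, n = 5 each). Gdnf stood at -5.12 ± 0.63, -5.95 ± 0.55 and -2.02 ± 0.63 in the same order of stages. A difference among the 3 stages passed the limma F test for both genes (adjusted p = 2.80e-07 for Fgf2 and 1.63e-07 for Gdnf), as it did for 83% of the 28863 features tested.

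**Figure D2:**
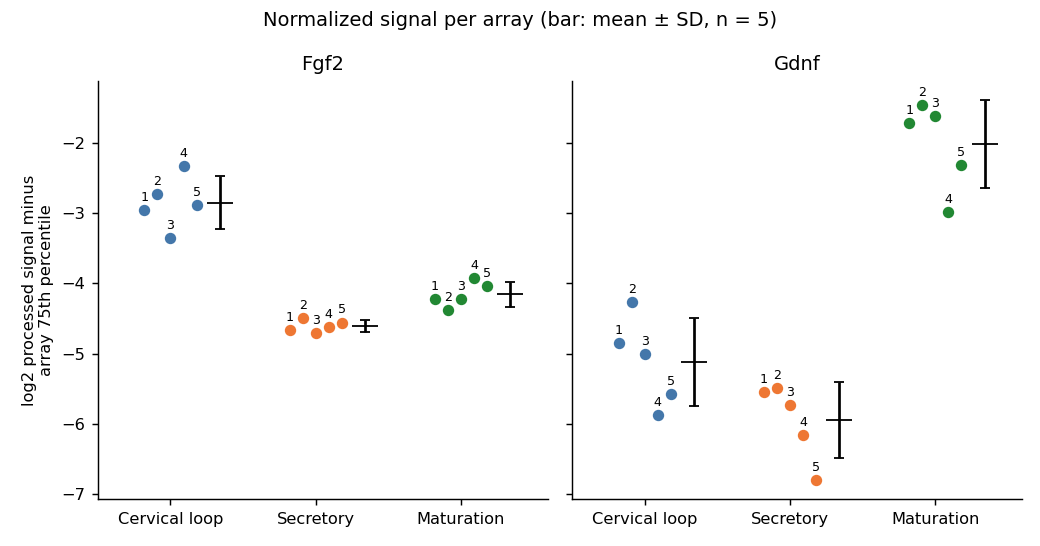
Normalized log2 signal of Fgf2 (left) and Gdnf (right) on each array, by stage, with the replicate number above each point and the mean ± SD (n = 5) as a bar. Fgf2 is highest in the cervical loop and Gdnf in maturation, and for Gdnf cervical loop and secretory arrays overlap.

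The first comparison asked how both transcripts differ between progenitor tissue of the cervical loop and secretory tissue. Fgf2 fell by 1.76 on the log2 scale, a 3.39-fold lower level in the secretory stage (SE 0.16, 95% interval -2.10 to -1.42, limma adjusted p = 2.65e-07). All 5 secretory arrays were below all 5 cervical loop arrays, with a gap of 1.14 between the nearest. In this comparison 58.1% of the features tested passed the threshold, 36.7% lower and 21.4% higher in the secretory stage. Stages did not overlap for 24.3% of features in the direction of Fgf2 and for 14.8% in the other, and 4.44% fell by more than Fgf2. An exact permutation test of the Fgf2 means gave p = 0.00794, the smallest that 5 against 5 arrays allow (two-sided; 0.00952 after Benjamini-Hochberg adjustment over 6 tests).

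Gdnf was lower in the secretory stage by a margin that did not hold up under all settings. The difference was -0.83 (SE 0.34, 95% interval -1.56 to -0.10), and its limma adjusted p of 0.0486 was just under the threshold of 0.05. The arrays of the stages overlapped, and the exact permutation test did not pass (p = 0.0714, two-sided, also after adjustment). The call was lost when any 1 of 9 of the 15 arrays was left out (difference -0.62 without cervical loop replicate 2 or without secretory replicate 5). It was also lost under quantile normalization (-0.29, adjusted p = 0.555). With the replicate number as a block the limma test passed (adjusted p = 0.00135), though the labels do not tie arrays of the same number. As Gdnf was well above background on only 2 of the 5 secretory arrays, its secretory level is in part an upper limit.

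The second comparison asked how the transcripts change from the secretory stage to maturation. Gdnf rose by 3.93 on the log2 scale (SE 0.34, 95% interval 3.20 to 4.66, limma adjusted p = 1.40e-07). This is a 15.2-fold higher measured signal. Each secretory array was also set to the dimmest signal that still counted as well above background there, or to the Gdnf signal where that was brighter, and with this processing maturation was 11.6-fold above that limit. The limit is lenient, as it is the lowest such signal of any probe on the array. A Gdnf spot of secretory replicate 1 failed the flag at a signal of 10.1. The lowest maturation array was 2.50 above the highest secretory array, and the exact permutation test gave the smallest p of the design (0.00794; adjusted 0.00952). In this comparison 59.5% of the features tested passed, 25.1% higher and 34.4% lower in maturation, and 86 features, 0.298% of those tested, rose by more than Gdnf.

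Fgf2 was slightly higher in maturation than in the secretory stage. The difference was 0.45 (SE 0.16, 95% interval 0.11 to 0.79), 1.37-fold, with a limma adjusted p of 0.0226. The arrays of both stages did not overlap, as was the case for 20.1% of features in this direction and 25.7% in the other, but the gap between the nearest arrays was only 0.11. The exact permutation test gave p = 0.00794 (adjusted 0.00952). The sign of this small difference turned with the processing: it was -0.38 when arrays were scaled on the 8 reference genes named on the array (adjusted p = 0.0716, a scaling chosen after seeing the data) and -0.14 with normexp background correction at an offset of 50 (adjusted p = 0.309). Of those reference genes, Hprt1 itself stood at 2.56 in the secretory stage and 4.77 in maturation, and Actb at 4.97 and 5.29 (mean normalized log2 signal). By limma neither of the turned differences passed the threshold, but the exact permutation test passed for the difference of -0.14 (p = 0.0238, adjusted 0.0286). The limma call was also lost without maturation replicate 4 (0.39, adjusted p = 0.0621).

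A single scan mixed these stages and held secretory replicates 1, 2 and 3 beside maturation replicate 5. Within these 4 arrays Gdnf was higher by 3.28 and Fgf2 by 0.59 on the maturation array, values that rest on 1 maturation array and are given with no test. With the scan as a block the limma fit took its differences from these arrays too, with an SE of 0.59 and an adjusted p of 0.0025 for Gdnf and an SE of 0.31 and an adjusted p of 0.208 for Fgf2. The lone maturation array is assumed in that fit to vary like the others.

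The last comparison set the cervical loop against maturation. Gdnf rose by 3.10 (SE 0.34, 95% interval 2.37 to 3.83, limma adjusted p = 1.60e-06), an 8.58-fold higher signal, and was measured on all arrays of both stages. In this comparison 63.2% of the features tested passed, 20.6% higher and 42.7% lower in maturation, and 256 features, 0.887%, rose by more than Gdnf. Fgf2 fell by 1.31 (SE 0.16, 95% interval -1.65 to -0.97, limma adjusted p = 4.22e-06), to a 2.48-fold lower level, and 13% of features fell by more. The stages overlapped for neither gene, as for 14.3% of features in the direction of Gdnf and 30.6% in that of Fgf2, and the exact permutation p was 0.00794 for both (adjusted 0.00952).

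The order of levels was therefore cervical loop, maturation, secretory for Fgf2 and maturation, cervical loop, secretory for Gdnf. Of the neighbours in these orders, maturation and secretory were close for Fgf2. Maturation minus secretory stayed positive with quantile normalization (0.71) and median scaling (0.67). It turned negative with scaling on the reference genes (-0.38) and with normexp background correction at an offset of 50 (-0.14). For Gdnf, the arrays of cervical loop and secretory stage overlapped, and the exact permutation test, which does not pair arrays, did not pass. The comparisons share arrays: the cervical loop arrays enter the first and the last, the secretory arrays the first and the middle one, and the maturation arrays the middle and the last.

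A part of the differences of single genes depends on how arrays are scaled against each other. The median difference of all features tested was -0.19, -0.12 and -0.28 in the first, middle and last comparison, and 0.03, 0.10 and 0.16 when arrays were centred on their median instead. Relative to the median feature, Fgf2 differed by -1.57, 0.57 and -1.03 and Gdnf by -0.63, 4.05 and 3.38. These are the same with either scaling by construction, as each subtracts 1 constant per array. With quantile normalization the same values were -1.45, 0.72 and -0.75 for Fgf2 and -0.22, 4.02 and 3.78 for Gdnf. With normexp background correction at an offset of 50 they were -0.47, 0.10 and -0.40 for Fgf2 and 0.12, 1.33 and 1.42 for Gdnf. The share of higher features among those that differed was 36.8%, 42.2% and 32.5% in the 3 comparisons, and 53.8%, 57.8% and 61.8% with median scaling.

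Both probes lie on the same arrays, so the difference between them within an array does not depend on the scaling factor. The level of one probe cannot be set against that of another, but a change of this difference between stages shows unequal change of the genes. Gdnf minus Fgf2 averaged -2.27 ± 0.85 over cervical loop, -1.34 ± 0.57 over secretory and 2.14 ± 0.80 over maturation arrays (SD, n = 5 each). From cervical loop to maturation it rose by 4.41, and from secretory stage to maturation by 3.48 (exact permutation p = 0.00794, two-sided; 0.0119 after adjustment over 3 tests). Between cervical loop and secretory stage the change of 0.93 did not pass (exact permutation p = 0.0714).

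**Figure D3:**
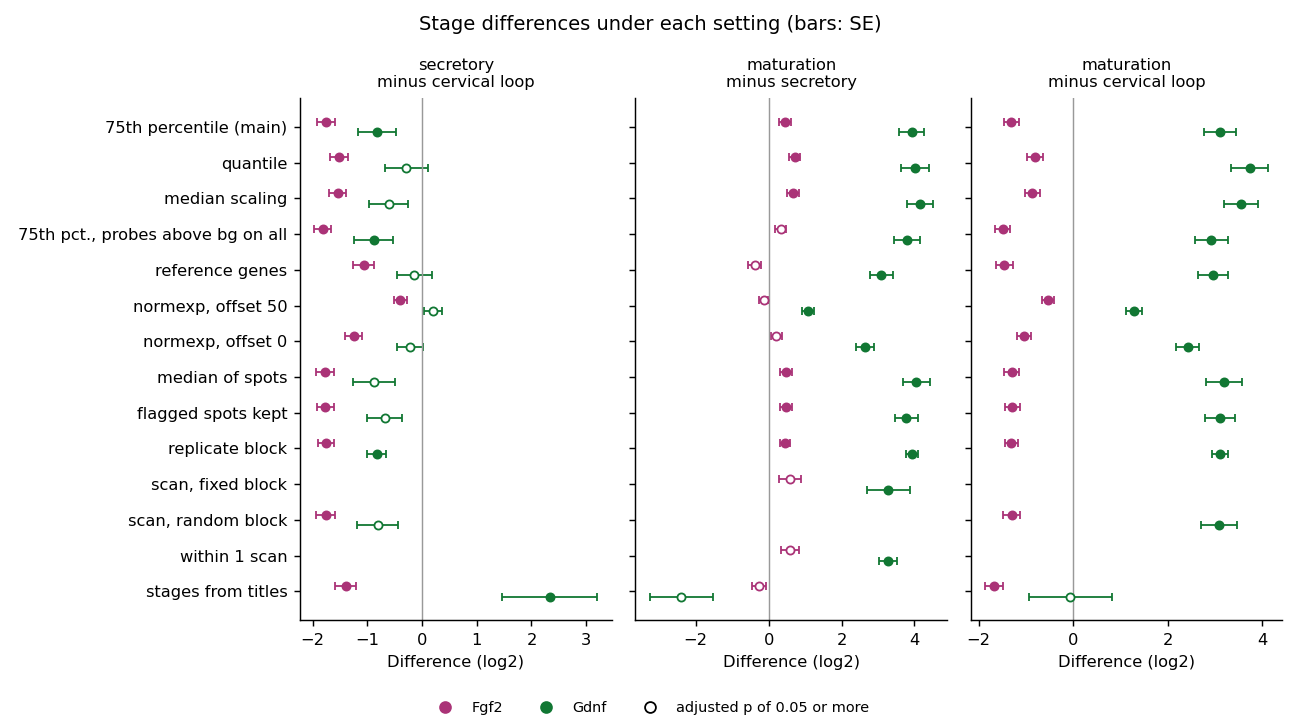
Difference between stages in log2 for Fgf2 (purple) and Gdnf (green) under each processing setting, with the standard error as a bar; open points have an adjusted p of 0.05 or more, and a missing point means that the setting gave no value for that comparison. The rises of Gdnf to maturation and the falls of Fgf2 from the cervical loop keep their sign in all settings with stages from the tissue label, while Gdnf between cervical loop and secretory stage and Fgf2 between secretory stage and maturation cross 0.

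The sizes also changed with the background correction. With normexp correction and an offset of 50, which adds 50 to every signal, Gdnf rose by 1.09 from secretory stage to maturation and by 1.29 from cervical loop to maturation. Fgf2 then differed by -0.40 and -0.53 from the cervical loop in the secretory stage and in maturation. With normexp and an offset of 0, chosen after seeing the data, these differences were 2.65 and 2.42 for Gdnf and -1.25 and -1.04 for Fgf2. All 8 of these differences passed the limma threshold (the highest adjusted p was 0.0114) in the direction given above.

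The Gdnf values of each stage split by the replicate numbers of the sample titles with the processed signal. Replicates 4 and 5 were the lowest arrays for Gdnf in the cervical loop, in the secretory stage and in maturation, and replicates 1 to 3 lay above their stage mean in all 3. The mean of replicates 4 and 5 differed from that of replicates 1 to 3 by -1.02 in the cervical loop, -0.89 in the secretory stage and -1.05 in maturation (log2, normalized). The secretory value has only limited meaning, as Gdnf was not measured above background on replicates 3, 4 and 5 there. With normexp correction at an offset of 50 replicates 4 and 5 were the lowest in maturation only, and the difference was -0.15 in the cervical loop, -0.09 in the secretory stage and -0.70 in maturation. With quantile normalization or normexp at an offset of 0 they were the lowest in all stages. In maturation the processed signal was 63.5 and 115 on replicates 4 and 5 against 138, 179 and 153 on replicates 1 to 3. Of the 28863 features tested, 24 (0.0832%) had replicates 4 and 5 below the other replicates in all stages, and 72 (0.249%) had them above in all stages. Gdnf was 1 of these 24. A random order of the replicates within each stage would give a share of about the size of this 0.0832%. The share therefore does not mark the Gdnf split as unusual. This split was chosen after the values were seen, and it was not tested.

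Fgf2 showed no such separation in all stages. Before scaling, replicates 4 and 5 were its brightest arrays in the cervical loop (79.0 and 80.0) and in maturation (33.2 and 35.01), where Gdnf was lowest on them. On the normalized scale its replicates 4 and 5 were the highest arrays in maturation only, and the corresponding differences were 0.40 in the cervical loop, 0.03 in the secretory stage and 0.30 in maturation. The labels do not say whether a number marks a rat. In the secretory stage the split of Gdnf matched the scans, since replicates 4 and 5 had a scan of their own. In maturation and in the cervical loop replicate 4 was read in the same scan as replicates 1 to 3, and replicate 5 in another.

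**Figure D4:**
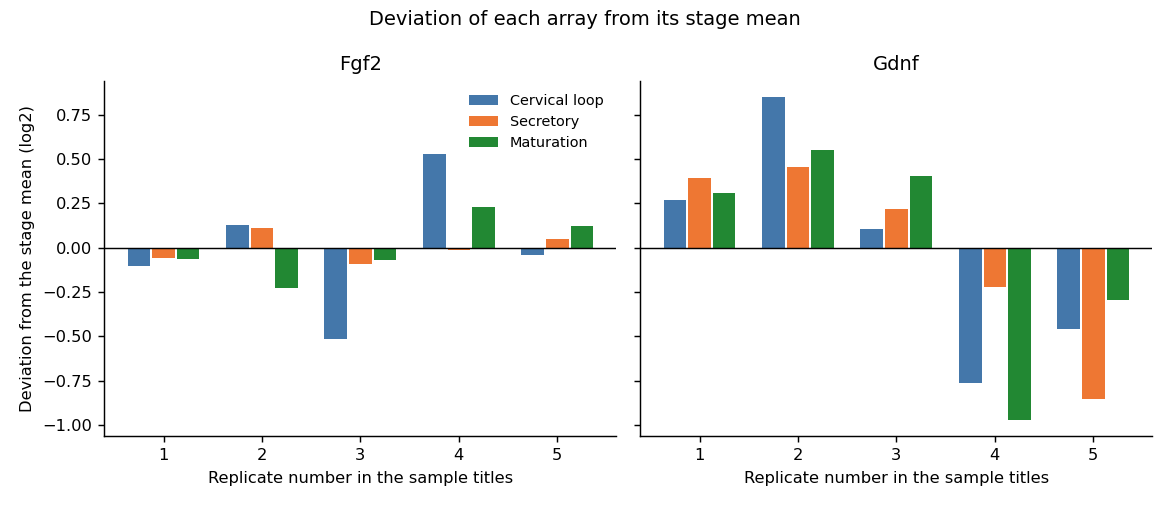
Deviation of each array from the mean of its stage in log2, by the replicate number of the sample titles, for Fgf2 (left) and Gdnf (right). With the processed signal, Gdnf lies above the stage mean in replicates 1 to 3 and below it in replicates 4 and 5 in all stages. Fgf2 shows a split of these replicates in maturation only, in the other direction.

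Other genes of these pathways could hardly be examined. Of the 60 genes listed for FGF ligands, receptors, co-receptors and feedback regulators and for GDNF family ligands and receptors, the array named 2, Fgf2 and Gdnf themselves. None of the listed receptors, among them Fgfr1, Fgfr2, Ret and Gfra1, was named, nor was any of 15 other growth factors of the tooth such as Bmp4 and Shh. In the RefSeq gene table of the assembly GRCr8, used for names only, the gene Nudt6 overlaps Fgf2. No probe was named for Nudt6, and whether the Fgf2 probe lies in the overlap was not tested.

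Among the 37 RefSeq genes tested, those most like Fgf2 over the 15 arrays were Dlg4 (Pearson r = 0.93), which encodes the synaptic scaffold PSD-95, Magoh (0.93), a core gene of the exon junction complex, and Actb (0.90), which encodes beta-actin. Of the ultraconserved-element probes, which stand for DNA stretches identical in human, mouse and rat, the most similar were uc.195- (0.94), uc.40- (0.94) and uc.285+ (0.92). Magoh stood at 2.41 in cervical loop, 1.48 in secretory and 1.84 in maturation samples (mean normalized log2 signal), the same order of stages as Fgf2. The unnamed probe ASRNV20015892 reached the highest correlation with Fgf2 of the probes without a gene name (0.98).

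The RefSeq genes most like Gdnf were Enpp1 (Pearson r = 0.96), which encodes an enzyme that makes the mineralization inhibitor pyrophosphate, Hprt1 (0.94), an enzyme of purine salvage, and Ptk2b (0.93), a non-receptor tyrosine kinase. Enpp1 stood at 2.17 in cervical loop, 1.28 in secretory and 4.98 in maturation samples, the order of stages that Gdnf had. Among ultraconserved-element probes uc.217+ (0.93), uc.454- (0.88) and uc.121+ (0.87) came first, and among probes without a gene name ASRNV20022599 (0.98). Fgf2 and Gdnf correlated with each other at -0.11. These correlations describe 15 arrays that fall into 3 stages, share the scaling of each array and were not tested.

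**Figure D5:**
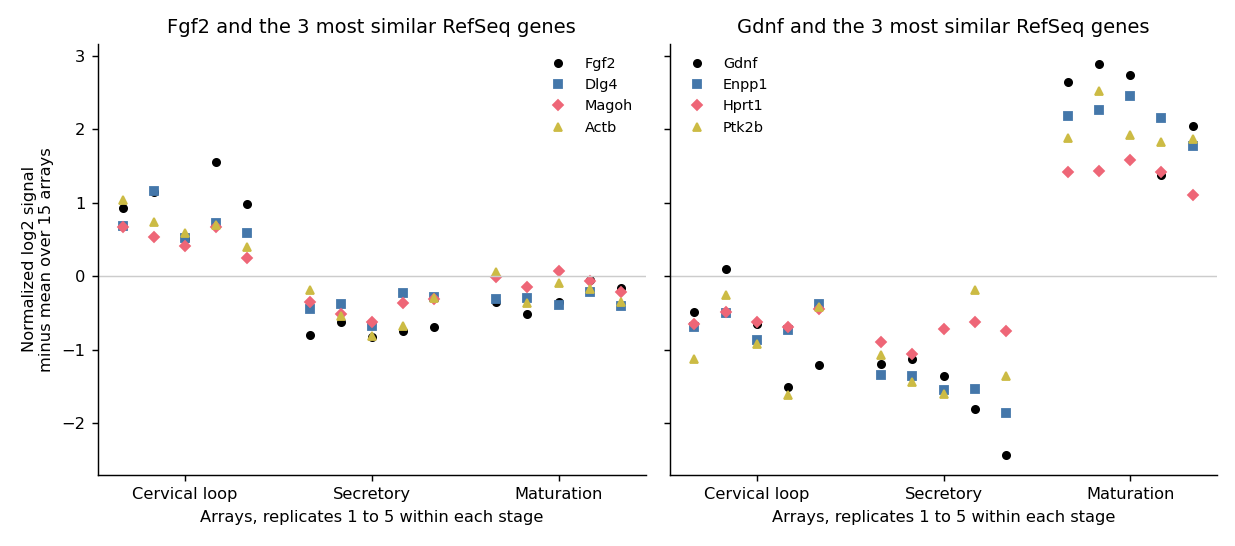
Normalized log2 signal minus the gene's mean over the 15 arrays, for Fgf2 with Dlg4, Magoh and Actb (left) and for Gdnf with Enpp1, Hprt1 and Ptk2b (right). The genes on the left are highest in the cervical loop and those on the right in maturation, where Gdnf of replicate 4 lies below Enpp1 and Ptk2b.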

How the data were processed

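Each RNA sample was labelled with Cy3 and hybridized to its own one-colour array, per the labels' protocols. The submitters' processing notes name Agilent Feature Extraction 11.0.1.1. The deposited scanner files give, per the file headers, linear intensities for every spot, among them a processed signal from which background was subtracted, and flags of 0 or 1 in other columns. A series table deposited by the authors gives log2 values for 38237 probes and holds neither Fgf2 nor Gdnf.

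Control spots were not used, nor were those the scanner software marked as uneven or outlying (107 to 276 spots per array). The remaining spots of a probe were averaged, and each array's 75th percentile was subtracted on the log2 scale. A probe counted as well above background where the scanner's flag said so for 50% or more of its spots. The 28863 features that reached this on all 5 arrays of at least 1 stage entered a limma fit (3.58.1, R 4.3.3) over the 15 arrays with no block, and Benjamini-Hochberg adjustment covered all of them (threshold 0.05). Single genes were also compared with exact two-sided permutation tests over arrays. Accessions were matched without versions to RefSeq names (39 of 62 probes matched). Normexp correction used the median signal of the scanner files. The fit was tested on simulated data. Tables and plots were made with Python 3.11.15, pandas 2.3.3, numpy 2.4.6 and matplotlib 3.10.9.

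The sample titles call the arrays of a stage biological replicates, but the labels do not tie samples to single animals. The p-values measure the spread between these samples, a part of which may be technical. Fgf2, Gdnf, the gene lists and the alternatives were chosen with earlier results of these data known. The rule for named genes takes Fgf2 and Gdnf and, for each, the 3 RefSeq genes, 3 ultraconserved-element probes and 1 unnamed probe of highest Pearson correlation over the 15 arrays. The alternatives were other scalings, background corrections, filters, spot summaries and stage labels, the scan and the replicate number as blocks, and leaving out arrays. Secretory and maturation arrays of the same replicate number deviated from their stage means together (r of 0.11 to 0.29 over all features in the 5 pairs). These numbers may therefore pair the arrays of these stages, but the labels do not say so. The main limma fit and the exact permutation tests did not pair arrays, and the replicate number entered as a block only among the alternatives. In the other pairs of stages 1 and 2 of 5 correlations exceeded 0.1. Probe sequences were not used here.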

Additional observations from a re-analysis of the deposited data

How the results depend on the processing

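With stages from the tissue label, the falls of Fgf2 from the cervical loop passed under every alternative run. They were -1.82 to -0.40 in the secretory stage and -1.49 to -0.53 in maturation. The rise of Gdnf from the secretory stage to maturation (1.09 to 4.15) passed wherever it did not rest on 1 maturation array. With the scan as a block or within 1 scan, where it did, the difference was 3.28. From the cervical loop to maturation Gdnf rose by 1.29 to 3.73 and passed under every alternative. Leaving out 1 array gave -1.89 to -1.63 and -1.44 to -1.18 for Fgf2 and 3.72 to 4.17 and 2.91 to 3.34 for Gdnf, in the same order. The Gdnf difference between cervical loop and secretory stage lost its call with quantile normalization (-0.29), median scaling (-0.61), reference-gene scaling (-0.14), normexp at an offset of 0 (-0.23), flagged spots kept (-0.68), no filter on dim probes (-0.83), the median of the spots (-0.88) and the scan as a random block (-0.81), and turned to 0.20 with normexp at an offset of 50 (adjusted exact permutation p = 0.175). Leaving out 1 array gave -1.02 to -0.62 (adjusted exact permutation p of 0.0397 to 0.135, the lowest without cervical loop replicate 4). Between secretory stage and maturation Fgf2 lost its call with the 75th percentile over probes well above background on all arrays (0.33). The call was also lost with normexp at an offset of 0 (0.22) and without both first replicates (0.45). With the scan as a block it was lost too (0.59, resting on 1 maturation array). The difference turned to -0.14 with normexp at an offset of 50 and -0.38 with reference genes (adjusted exact permutation p = 0.0286 and 0.0762). Leaving out 1 array gave 0.39 to 0.51. The causes were not tested.

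With stages from the titles, Gdnf differed by 2.33, -2.39 and -0.060 (secretory against cervical loop, maturation against secretory, maturation against cervical loop) and Fgf2 by -0.27 between maturation and secretory stage. The adjusted exact permutation p was 0.133 for Fgf2 and 0.131 for Gdnf between these stages, and for Gdnf against the cervical loop 0.976 in maturation and 0.0635 in the secretory stage. By limma 0 features then differed between maturation and secretory stage (7184 at an unadjusted p under 0.05) and 11598 between maturation and cervical loop. With stages from the tissue label 17160 features differed between maturation and secretory stage, 5831 with the scan as a block and 3393 within 1 scan.

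Deviations of same-numbered arrays correlated at -0.11 to 0.11 between cervical loop and secretory stage, which share only a number. Gdnf was higher in the cervical loop under all 5 numbers (0.29 to 1.22). With the replicate number as a block the Gdnf differences had an SE of 0.17 in place of 0.34 (adjusted p = 0.00135 between cervical loop and secretory stage), and no call of Fgf2 or Gdnf changed. Gdnf had no value among features above background on all arrays. Dim secretory Gdnf spots limit the precision. Reference genes, offset 0, flagged spots kept and leaving out both first replicates were chosen after seeing the data.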
